A study of Rattus norvegicus with 8 samples.

Results

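The genes for the pore-forming and auxiliary subunits of voltage-gated sodium channels, voltage-gated calcium channels and HCN channels, together with the sodium leak channel gene Nalcn, were examined in the striatum of rats that self-administered methamphetamine (METH) or saline. They were taken from the raw count table by symbol (Scn, Cacnb or Hcn followed by a digit, Cacna1 and Cacna2d, plus Nalcn), which gave 37 of 17337 genes. Of these, 14 were sodium channel genes (10 alpha and 4 beta subunits), 18 were calcium channel genes (10 alpha1, 4 alpha2delta and 4 beta subunits), 4 were HCN genes and 1 was Nalcn. Polyadenylated RNA was sequenced and counted per gene in 8 male wild-type Sprague-Dawley rats, 4 in each group. METH rats took METH hydrochloride at 0.05 mg/kg per infusion by lever press in sessions of 2 h per day for 16 days, and saline rats worked for saline on the same schedule. All rats had been trained with food pellets, carried a jugular catheter, and were anesthetized with ketamine and xylazine before the brain was taken. Per the methods, 4 rats per group with stable lever pressing in the last days were picked from larger groups for plasma sampling. Whether the sequenced rats were the same ones is not stated there. The methods do not give the delay from the last session to the tissue, and the dissected striatum was whole tissue in which fewer cells of a type and less RNA per cell cannot be told apart.

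Sodium channel alpha subunits open on depolarization and carry the upstroke of the action potential, while calcium channels turn depolarization into calcium entry for transmitter release, dendritic signalling and gene expression. The alpha1 or alpha subunit forms the pore, and the beta and alpha2delta subunits set how many channels reach the membrane and how they gate. HCN channels open on hyperpolarization and are tuned by cyclic AMP, and NALCN carries a steady sodium leak that sets the resting potential. Striatal projection neurons rest at a strongly negative potential and fire only when driven, and dopamine receptors modulate their sodium and calcium currents.

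None of the channel genes passed the test for a difference between METH and saline rats. Genes were tested with the quasi-likelihood F-test of edgeR, and a gene was called at a false discovery rate (FDR, the p-value adjusted over all genes tested) below 0.05 with a mean log2 CPM above 1, where CPM is the count scaled to a common library size and corrected for library composition by TMM. Of the 37 channel genes, 30 passed the filter on low counts, and 0 of these 30 were called, where 62 of the 12014 genes tested (0.516%) were called. At an unadjusted p below 0.05 in the same edgeR test there were 4 channel genes (13.3%), beside 11.1% of all genes, so the share was near the background. The count called was also 0 with the likelihood ratio test of edgeR, with DESeq2 and with limma-voom. In 0 of the 30 did the METH rats lie entirely above or below the saline rats, whereas the groups did not overlap in 6.39% of all genes tested.

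The 4 genes with an unadjusted p below 0.05 in the edgeR test were Cacnb1 and Hcn2, which had higher means in METH rats, and Scn2a and Nalcn, which had lower means. Across all genes tested, 6.26% had such a p with a higher and 4.88% with a lower mean in METH rats. Log2 fold changes (METH against saline) were above 0 for 17 genes and below 0 for 13. Their median was 0.016, beside -0.0055 over all genes tested. The 95% interval of the fold change lay within 1.2-fold in either direction for 4 of the 30 genes, within 1.5-fold for 24 and within 2-fold for 28. The same shares over all genes tested were 19.9%, 70.8% and 88%, against 13.3%, 80% and 93.3% of the channel genes. For most of the family, changes above 1.5-fold were therefore outside the interval of the estimate, while smaller ones were not resolved with 4 rats per group.

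**Figure D1:**
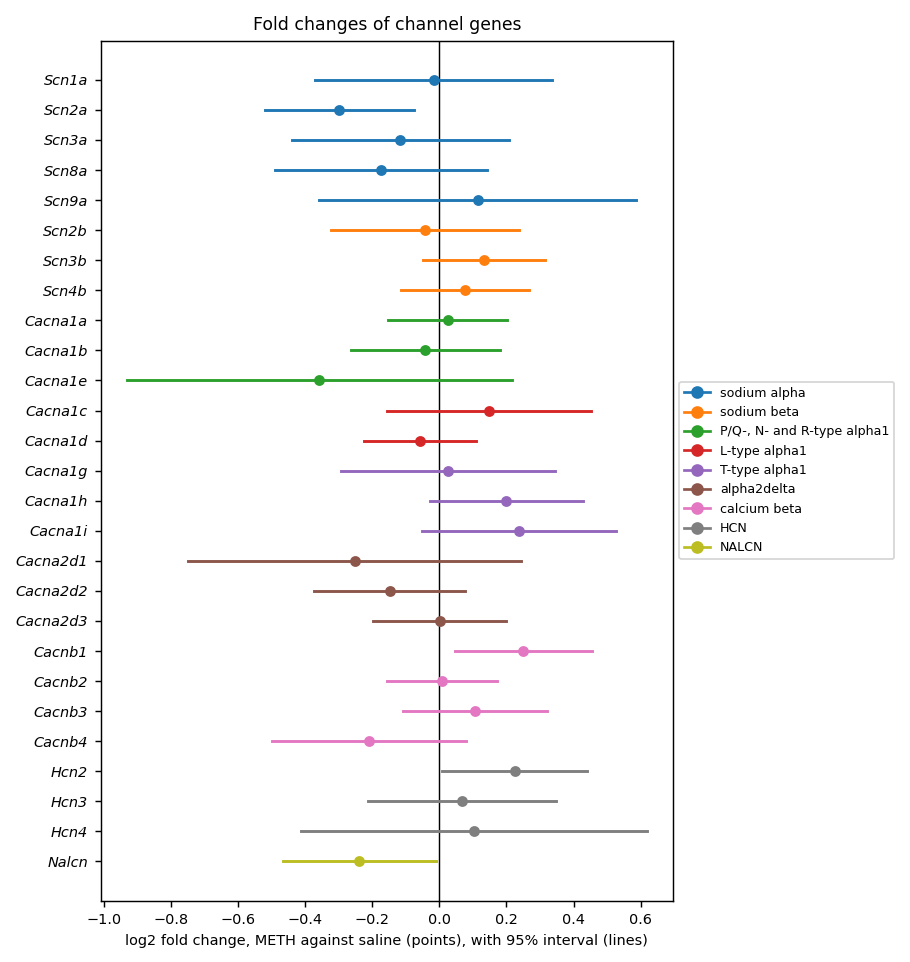
Log2 fold change of METH against saline rats (horizontal axis) for 27 of the 30 channel genes tested (vertical axis), with points for the estimates, lines for the 95% intervals from the edgeR quasi-likelihood fit and colours for the subunit families. Of the intervals shown, only those of Scn2a, Cacnb1, Hcn2 and Nalcn leave out 0.

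The libraries held between 18135939 and 20832550 counts in saline rats and between 18520038 and 21211920 in METH rats, so that 3 counts corresponded to 0.142 to 0.169 CPM. Rats within a group differed by more than counting noise in every pair (chi-square between 10.1 and 27.6 per degree of freedom). On the first principal component of log2 CPM over all genes tested (26.4% of the variance), every saline rat lay below every METH rat. Saline rats 1 to 4 were at -4.17, -8.78, -24.6 and -11.7, and METH rats 1 to 4 at 5.29, 0.257, 39.5 and 4.17. The rats numbered 3 were thus the ends of a component on which the groups did not overlap. Saline rat 1 held more cortical transcript than the others, with a summed level of 97.1 CPM over 6 markers of cortical pyramidal neurons against at most 19.7 CPM in the other saline rats and 14.4 to 25.5 CPM in METH rats. Striatal projection neuron markers were high in every rat (14380 to 19180 CPM over the 9 listed).

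The upstream sequences of 4 genes are shown. Scn2a, Nalcn and Hcn2 were channel genes with an unadjusted p below 0.05 in the edgeR test, though none was called. Cacnb1 also had such a p, but there was no upstream sequence for it in the reference used. Also shown is the sequence of Rem2, an inhibitor of calcium channels whose level rose. Each is the 250 bases before the annotated start, from RefSeq on assembly GRCr8 and not on the rn6 build of the counts, written 5′ to 3′ on the gene's own strand. Capitals mark GC boxes, the letters GGGCGG or the reverse CCGCCC, to which Sp-family factors can bind. They lie at chr3:70710706-70710955 (plus strand, Scn2a), chr15:107147859-107148108 (minus strand, Nalcn), chr7:10639458-10639707 (minus strand, Hcn2) and chr15:31903722-31903971 (plus strand, Rem2).
Scn2a: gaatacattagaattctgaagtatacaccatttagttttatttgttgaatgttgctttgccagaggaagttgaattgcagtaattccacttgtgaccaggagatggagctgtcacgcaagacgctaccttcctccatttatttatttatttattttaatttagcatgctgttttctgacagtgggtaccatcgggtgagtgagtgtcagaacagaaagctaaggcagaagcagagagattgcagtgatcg
Nalcn: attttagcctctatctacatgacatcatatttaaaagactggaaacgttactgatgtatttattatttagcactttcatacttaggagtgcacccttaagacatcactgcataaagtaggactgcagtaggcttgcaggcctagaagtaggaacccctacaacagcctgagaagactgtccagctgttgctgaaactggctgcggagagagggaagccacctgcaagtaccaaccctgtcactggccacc
Hcn2: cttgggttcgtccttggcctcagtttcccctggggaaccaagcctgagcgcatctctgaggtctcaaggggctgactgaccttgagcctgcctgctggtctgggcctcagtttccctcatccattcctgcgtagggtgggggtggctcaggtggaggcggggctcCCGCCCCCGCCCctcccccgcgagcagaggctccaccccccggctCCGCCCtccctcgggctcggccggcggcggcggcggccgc
Rem2: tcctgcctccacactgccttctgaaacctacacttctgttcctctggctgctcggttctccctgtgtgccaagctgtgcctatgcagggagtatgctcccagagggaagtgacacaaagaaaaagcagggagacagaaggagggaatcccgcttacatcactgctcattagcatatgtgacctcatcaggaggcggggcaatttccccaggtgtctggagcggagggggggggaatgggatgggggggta

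The Hcn2 window was rich in G and C and held 3 GC boxes, all read as CCGCCC, while the windows of Scn2a, Nalcn and Rem2 held none. Among channel genes, 24 of 37 had an entry, with 27 windows between them. A GC box on either strand was found in 14 of these 27 windows (51.9%), beside 30.5% of all 33469 windows of the same length. The cAMP response element TGACGTCA was found in 0 of the 27, beside 1.59% of all windows. These are matches of letters only. On the same assembly, pairs of channel genes stood next to each other in the order of protein-coding genes, among them Scn3a and Scn2a, Scn1a and Scn9a, Scn9a and Scn7a, and Scn2b and Scn4b.

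Among sodium channel alpha subunits, Scn2a had the lowest p-value. It encodes a sodium channel of axons and their initial segments in principal neurons. Scn2a was at 252, 234, 319 and 283 CPM in saline rats 1 to 4 and at 227, 241, 190 and 229 CPM in METH rats 1 to 4. METH rat 2 lay above saline rat 2, and the other METH rats lay below all saline rats. The means were 272 ± 37.3 and 222 ± 21.8 CPM (SD, n = 4 each), with saline rat 3 highest and METH rat 3 lowest. The log2 fold change was -0.30 (standard error 0.10, 95% interval -0.52 to -0.08), with an unadjusted p of 0.0122 and an FDR of 0.306 in the edgeR quasi-likelihood test and a two-sided exact permutation p of 0.0571. The smallest p that 70 labelings of 4 against 4 rats allow is 0.0286. Without both rats numbered 3, an alternative chosen after seeing the data, the log2 fold change of Scn2a was -0.15 (unadjusted p = 0.1005, edgeR). Those rats held the ends of the range in the direction of the group difference, so a smaller change without them follows by construction.

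Scn8a, the channel of mature initial segments and nodes of Ranvier, had a log2 fold change of -0.17, from 83.7 to 148 CPM over the 8 rats. Scn3a, which is most active in the developing brain, had -0.12. Scn1a, known from fast-spiking interneurons and from Dravet syndrome, had -0.02.

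Scn8a, Scn3a and Scn1a each overlapped between groups, and their 95% intervals covered 0. Scn9a, known from peripheral and neuroendocrine neurons, was at 4.06 to 8.38 CPM with a log2 fold change of 0.11.

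The 4 sodium alpha subunit genes that did not pass the count filter were those of skeletal muscle (Scn4a), of nociceptors (Scn10a and Scn11a) and of sodium sensing (Scn7a). Scn4a had 5 to 15 counts per rat, Scn7a had 2 to 19 and Scn10a had 0 to 6. Scn11a had 41, 14, 2 and 2 counts in saline rats 1 to 4 and 0, 1, 1 and 3 counts in METH rats 1 to 4. Its counts were thus concentrated in saline rats 1 and 2, and saline rat 1 was also the library with the high cortical marker level. The part of that library in the Scn11a counts was not tested.

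The sodium channel beta subunits are adhesion proteins that change gating and surface level of the alpha subunits. Scn4b, whose product supports resurgent sodium current and is abundant in striatal projection neurons, had the highest CPM of the 4, an order that chose the gene to describe and is not a comparison of levels, since CPM also grows with transcript length. It was at 1668, 1762, 1666 and 1570 CPM in saline rats 1 to 4 and at 1772, 1725, 2054 and 1479 CPM in METH rats 1 to 4. The METH rats held both the highest value, in rat 3, and the lowest, in rat 4, and the groups overlapped.

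Means for Scn4b were 1666 ± 78.3 and 1757 ± 236 CPM (SD, n = 4 each), and the log2 fold change was 0.08 (standard error 0.09, 95% interval -0.12 to 0.27, edgeR FDR = 0.775, exact permutation p = 0.543). METH rat 3 also had the highest summed level of projection neuron markers, at 19180 CPM against 15150 to 16470 CPM in the other METH rats. Ppp1r1b alone gave 10290 CPM of this sum. Drd2, Penk and Rgs9 were also highest in METH rat 3, but Drd1 was lowest there of all 8 rats, at 450 CPM. The part of this marker level in the Scn4b level of that rat was not tested. Scn3b had a log2 fold change of 0.13 and Scn2b -0.04. Of the 4 beta subunits, 0 had an unadjusted p below 0.05 in the edgeR test.

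The P/Q-, N- and R-type channels encoded by Cacna1a, Cacna1b and Cacna1e drive transmitter release and dendritic calcium entry. Cacna1a, which had the highest CPM of the 3, was at 197, 196, 223 and 204 CPM in saline rats 1 to 4 and at 181, 224, 219 and 211 CPM in METH rats 1 to 4. The ranges of the groups nearly coincided, with METH rat 1 lowest. Means were 205 ± 12.6 and 209 ± 18.9 CPM (SD, n = 4 each), a log2 fold change of 0.02 (standard error 0.08, 95% interval -0.15 to 0.20, edgeR FDR = 0.940, exact permutation p = 0.83).

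Cacna1b had a log2 fold change of -0.04, with saline rat 3 at 108 CPM and the other rats between 77.5 and 99.6 CPM. Cacna1e spread more widely. It was at 46.8, 44.9, 98.9 and 65.3 CPM in saline rats 1 to 4 and at 32.1, 73.5, 37.7 and 56.2 CPM in METH rats 1 to 4. Saline rat 3 was the highest and METH rat 1 the lowest, a 3.08-fold span. Its log2 fold change was -0.36 (95% interval -0.93 to 0.22), and 0.04 without both rats numbered 3.

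L-type channels couple depolarization to gene expression and shape the depolarized state of projection neurons. Cacna1c was at 45.7, 48.0, 71.5 and 51.6 CPM in saline rats 1 to 4 and at 47.8, 65.8, 63.5 and 63.5 CPM in METH rats 1 to 4. METH rat 1 lay among the lower saline rats, apart from METH rats 2, 3 and 4, and saline rat 3 was above all METH rats. The log2 fold change was 0.15 (standard error 0.14, 95% interval -0.15 to 0.45, edgeR FDR = 0.711, exact permutation p = 0.457), from 54.2 ± 11.8 to 60.2 ± 8.33 CPM (SD, n = 4 each). Without both rats numbered 3 the log2 fold change of Cacna1c was 0.29 (edgeR FDR = 0.582).

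Cacna1d, the L-type channel that opens at more negative potentials, was among the steadiest genes, from 50.7 to 59.6 CPM over the 8 rats. Its log2 fold change was -0.06. The retinal gene Cacna1f had 0 to 2 counts in saline rats and 11, 1, 1 and 1 counts in METH rats 1 to 4, and the skeletal muscle gene Cacna1s had 0 to 19 counts per rat. Neither passed the filter.

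T-type channels open near rest and support rebound and burst firing. All 3 of their genes had a log2 fold change above 0, as had 5842 of all 12014 genes tested. That of Cacna1g turned sign in 3 of 19 alternatives. Cacna1h was at 167, 176, 173 and 163 CPM in saline rats 1 to 4 and at 153, 211, 228 and 187 CPM in METH rats 1 to 4. METH rats 2, 3 and 4 were above every saline rat and METH rat 1 was below them all. Means were 170 ± 5.99 and 195 ± 32.6 CPM (SD, n = 4 each), with a log2 fold change of 0.20 (standard error 0.11, 95% interval -0.03 to 0.43, unadjusted p = 0.0799 and FDR = 0.489 in the edgeR test, exact permutation p = 0.229).

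The saline rats were close together for Cacna1h, with a coefficient of variation of 3.53%, against 16.7% in METH rats. Cacna1i had a log2 fold change of 0.24 and Cacna1g 0.03. For Cacna1i, METH rat 2 was highest at 207 CPM, and the other METH rats lay between 132 and 166 CPM beside 123 to 163 CPM in saline rats. Without METH rat 2 the log2 fold change of Cacna1i was 0.09.

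The alpha2delta subunits carry calcium channels to the membrane, and those of Cacna2d1 and Cacna2d2 bind gabapentin. Cacna2d3 had the highest CPM of the 4 and showed the smallest difference of all channel genes. It was at 266, 227, 308 and 277 CPM in saline rats 1 to 4 and at 262, 294, 252 and 270 CPM in METH rats 1 to 4. All METH rats lay inside the saline range.

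The Cacna2d3 means were 269 ± 33.3 CPM in saline rats and 270 ± 18.1 CPM in METH rats (SD, n = 4 each), and the log2 fold change was 0.0015 (standard error 0.09, 95% interval -0.20 to 0.20, edgeR FDR = 0.998, exact permutation p = 0.943). Cacna2d1 was at 47.9, 40.8, 82.5 and 67.1 CPM in saline rats 1 to 4 and at 46.2, 71.4, 32.4 and 50.0 CPM in METH rats 1 to 4. Saline rat 3 was highest and METH rat 3 lowest. The log2 fold change of Cacna2d1 was -0.25 with all rats and 0.11 without both rats numbered 3. Cacna2d2 had -0.15, and Cacna2d4, a gene of photoreceptors, had 2 to 18 counts per rat and was not tested.

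Calcium channel beta subunits bind the alpha1 subunit from inside the cell, carry it to the membrane and are the site through which small GTPases of the RGK family inhibit the channel. Cacnb1 had the lowest p-value of the 4. It was at 348, 326, 336 and 342 CPM in saline rats 1 to 4 and at 327, 417, 466 and 399 CPM in METH rats 1 to 4. METH rats 2, 3 and 4 were above every saline rat, and METH rat 1 was within the saline range.

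Means for Cacnb1 were 338 ± 9.38 and 402 ± 57.7 CPM (SD, n = 4 each). The log2 fold change was 0.25 (standard error 0.09, 95% interval 0.05 to 0.45), with an unadjusted p of 0.0193 and an FDR of 0.354 in the edgeR test and an exact permutation p of 0.114. Without METH rat 1 the FDR of Cacnb1 was 0.0883, the lowest of any channel gene under any alternative, and without METH rat 3 the unadjusted p was 0.0635 (edgeR, log2 fold changes 0.34 and 0.17).

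Cacnb3 had the highest CPM of the beta subunits. It was at 411, 449, 354 and 354 CPM in saline rats 1 to 4 and at 387, 428, 488 and 384 CPM in METH rats 1 to 4, with METH rat 3 above and the other METH rats inside the saline range. Its means of 392 ± 46.4 and 422 ± 48.7 CPM (SD, n = 4 each) gave a log2 fold change of 0.11 (standard error 0.10, 95% interval -0.11 to 0.32, edgeR FDR = 0.711, exact permutation p = 0.371). Cacnb4, the gene of the lethargic mouse, had -0.21, and -0.03 without both rats numbered 3. Cacnb2 had 0.0071 with the narrowest span of the 30 genes, 1.16-fold over the 8 rats.

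Among HCN genes, Hcn2, a channel of slow kinetics with a strong response to cyclic AMP, was at 245, 278, 220 and 239 CPM in saline rats 1 to 4 and at 265, 282, 343 and 257 CPM in METH rats 1 to 4. METH rats 2 and 3 were above every saline rat, and METH rats 1 and 4 lay below saline rat 2. The means were 246 ± 24.2 and 287 ± 39.1 CPM (SD, n = 4 each), with a log2 fold change of 0.22 (standard error 0.10, 95% interval 0.01 to 0.44, unadjusted p = 0.0436 and FDR = 0.430 in the edgeR test, exact permutation p = 0.0857).

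Hcn2 was lowest in saline rat 3 and highest in METH rat 3, and without both of these rats its log2 fold change was 0.08 (unadjusted p = 0.348, edgeR).

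Hcn3 had a log2 fold change of 0.07 at 14.5 to 19.5 CPM. Hcn4, the pacemaker channel of the heart and of some thalamic neurons, had 0.10 at 2.71 to 4.81 CPM.

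Nalcn was at 159, 146, 184 and 176 CPM in saline rats 1 to 4 and at 153, 141, 114 and 156 CPM in METH rats 1 to 4. Saline rat 2 lay below METH rats 1 and 4, saline rat 3 was highest and METH rat 3 lowest. Means were 166 ± 16.9 and 141 ± 19.2 CPM (SD, n = 4 each), with a log2 fold change of -0.24 (standard error 0.11, 95% interval -0.46 to -0.01, unadjusted p = 0.0411 and FDR = 0.428 in the edgeR test, exact permutation p = 0.114). Without both rats numbered 3 it was -0.10 (unadjusted p = 0.281, edgeR). Its partner Unc79, a scaffold of the leak channel complex and the only one of the 6 listed complex names found in the table, had a log2 fold change of 0.20 (unadjusted p = 0.0901, FDR = 0.505, edgeR).

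**Figure D2:**
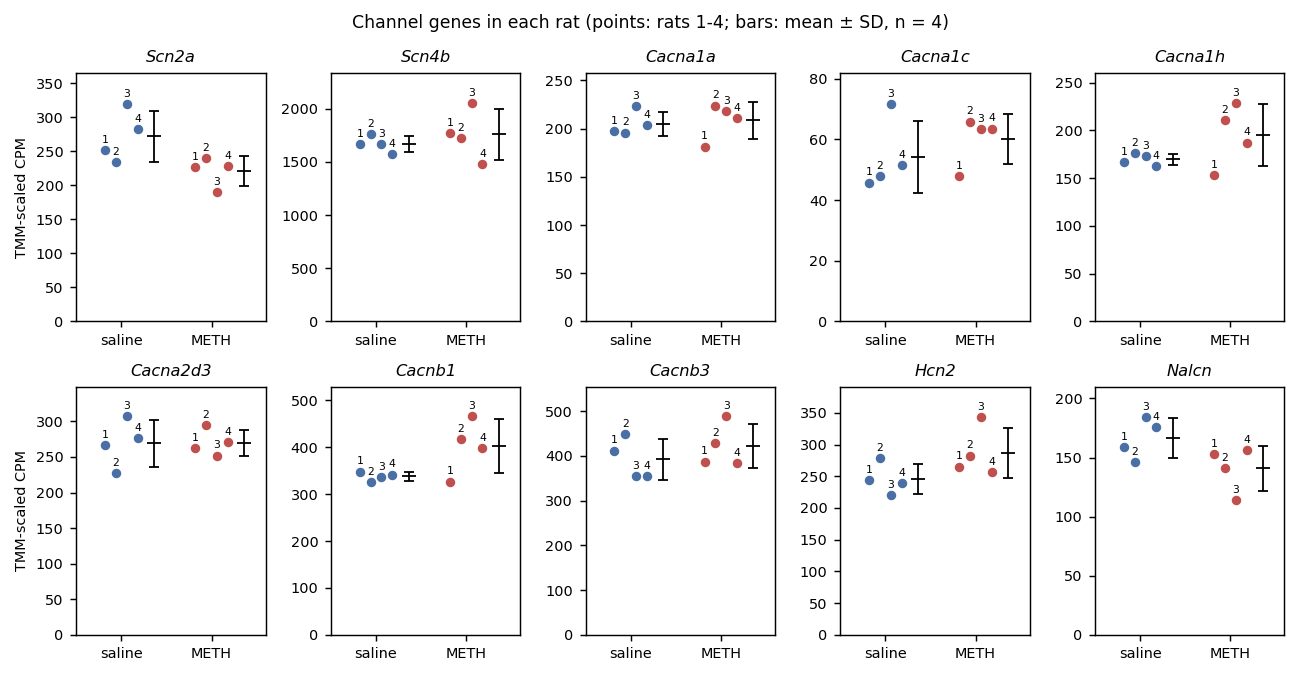
TMM-scaled CPM (vertical axes, each from 0) in the 4 saline and 4 METH rats for the 10 channel genes described rat by rat because of their p-value or because they had the highest CPM of their family, with numbered points for rats and bars for mean ± SD. In every panel the groups overlap, and METH rat 3 is the lowest rat for Scn2a (190 CPM) and Nalcn (114 CPM) and the highest for Cacnb1 (466 CPM) and Hcn2 (343 CPM).

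Single rats were at the ends of many channel genes at once. Saline rat 3 had the highest value of the 8 rats for 13 of the 30 genes tested (43.3%), beside 18.2% of all genes tested, and METH rat 1 had the lowest for 9 (30%), beside 10.1%. METH rat 3 was highest for 6 (20%) and lowest for 7 (23.3%), beside 23.1% and 22.3% of all genes. The rats numbered 3 held opposite ends for 9 channel genes (30%), beside 16% of all genes. Saline rat 3 was highest and METH rat 3 lowest for Scn2a, Scn2b, Cacna2d1, Cacnb2, Cacnb4 and Nalcn, and the reverse held for 3 genes, Cacnb3 and Hcn2 among them.

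Of the 4 genes with an unadjusted p below 0.05, 3 were thus among those with the rats numbered 3 at opposite ends. The same share among all genes with such a p was not counted. For Scn2a, Nalcn and Hcn2 the rats numbered 3 stood apart in the direction of the group difference. A smaller fold change without both of them therefore follows by construction. With both of these rats left out, an alternative chosen after seeing the data, 4 of the 31 channel genes then tested had an unadjusted p below 0.05 in the edgeR test, beside 8% of all genes in that fit, and they were 4 other genes, Cacna1c, Cacna1i and Scn3b among them, all with higher means in METH rats. Cacna1i then did not overlap between the 3 saline and the 3 METH rats left, as for 12.5% of all genes in that fit. The count called stayed at 0.

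Over the 8 rats, the highest value was a median of 1.59 times the lowest for the channel genes, beside 1.47 for all genes tested. The median coefficient of variation was 13.1% in saline rats and 13.7% in METH rats for the channel genes, beside 11.4% and 12% for all genes. Cacna1e (3.08-fold) and Cacna2d1 (2.55-fold) were among the genes with wide spans.

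**Figure D3:**
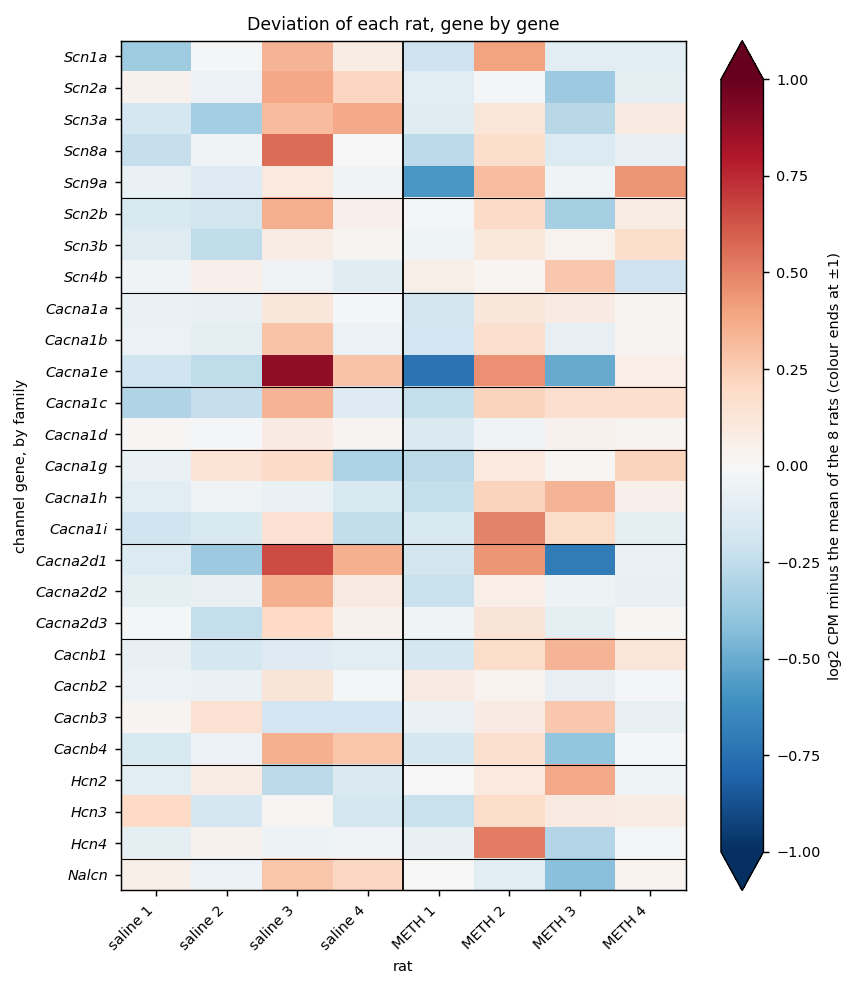
Log2 CPM of each rat minus the mean of the 8 rats (colour, red above and blue below, ends at ±1) for 27 of the 30 channel genes tested (rows, by family) in the 4 saline and 4 METH rats (columns, divided by the vertical line). The column of saline rat 3 is mostly red, with the highest value for 13 genes, and that of METH rat 1 is mostly blue, with the lowest for 9.

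Proteins that bind these channels were described from a list of 43 names, of which 36 were in the table and 33 were tested. The list was chosen with earlier results of these data known, so its shares are a description only. Of the 33, 1 was called, beside 0.516% of all genes tested, and 6 (18.2%) had an unadjusted p below 0.05 in the edgeR test, beside 11.1%, with the median log2 fold change at -0.0018. The called gene was Rem2, an RGK-family GTPase that binds calcium channel beta subunits and inhibits high-voltage-activated calcium channels, and whose transcription in neurons is induced by activity.

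Rem2 rose in METH rats. It was at 92.8, 88.5, 89.4 and 88.0 CPM in saline rats 1 to 4 and at 167, 153, 209 and 187 CPM in METH rats 1 to 4. The lowest METH rat was well above the highest saline rat, and the saline rats were nearly equal. Means were 89.7 ± 2.16 and 179 ± 24.4 CPM (SD, n = 4 each), a fold of 2.00 with a log2 fold change of 1.00 (standard error 0.09, 95% interval 0.80 to 1.2, edgeR FDR = 0.000188). The exact permutation p was 0.0286, the smallest possible here.

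The FDR of Rem2 lay between 1.25e-19 and 0.00437 over all alternatives, with log2 fold changes from 0.91 to 1.07 (edgeR, DESeq2 and limma-voom), and without both rats numbered 3 it was 0.000579 at a log2 fold change of 0.91. The other RGK genes did not pass the test. Gem was at 5.05, 5.90, 5.17 and 5.91 CPM in saline rats 1 to 4 and at 4.16, 2.57, 2.65 and 5.17 CPM in METH rats 1 to 4, with a log2 fold change of -0.60 (unadjusted p = 0.0301, FDR = 0.398, edgeR). METH rat 4 reached the lower saline values, and the other 3 were below all saline rats. Rem1 had a log2 fold change of -0.05 (edgeR FDR = 0.971) and Rrad -0.01 (edgeR FDR = 0.992).

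**Figure D4:**
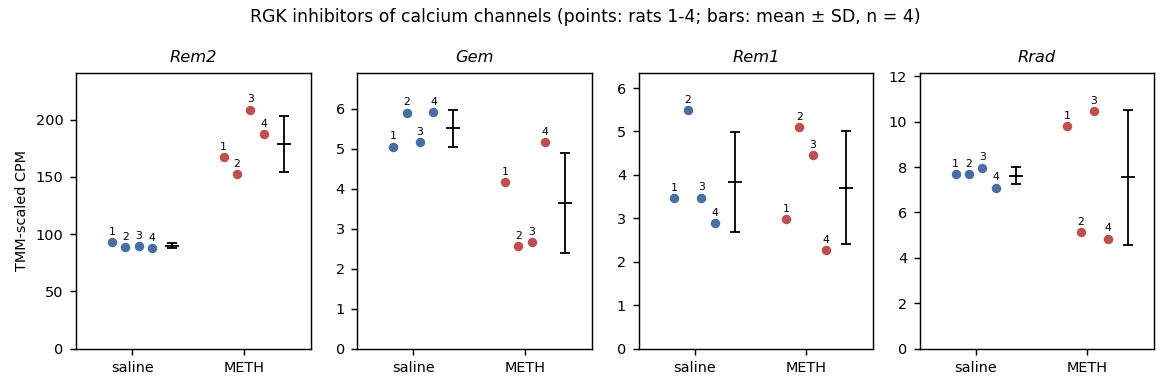
TMM-scaled CPM (vertical axes, each from 0) of the RGK-family genes Rem2, Gem, Rem1 and Rrad in the 4 saline and 4 METH rats, with numbered points for rats and bars for mean ± SD. All METH rats lie above all saline rats for Rem2 (153 to 209 against 88.0 to 92.8 CPM), while the groups overlap for the other 3.

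The remaining partners with an unadjusted p below 0.05 were not called. Fgf11, an intracellular binding protein of sodium channel alpha subunits, had a log2 fold change of -0.29 (FDR = 0.430, edgeR). Cacng2 and Cacng7, better known as AMPA receptor auxiliary subunits, had -0.31 (FDR = 0.403) and 0.16 (FDR = 0.424) in the edgeR test. Pex5l, the TRIP8b protein that sets the surface level of HCN channels, had -0.37 (FDR = 0.436, edgeR).

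By family, 1 of 11 sodium channel partners, 4 of 18 calcium channel partners, 1 of 3 HCN partners and 0 of 1 NALCN partners had such a p, beside 11.1% of all genes tested. The groups did not overlap for 4 partners, Rem2, Cacng7 and Calm3 with METH rats higher and Fgf11 with METH rats lower, that is 4 of 33 beside 6.39% of all genes tested. Partners untested for low counts were Cacng6, Stac3 and Cav3.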

How the data were processed

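Striatal mRNA was measured in 8 rats, 4 per group. Per the labels and the submitters' processing notes, the authors used Cutadapt 1.18 for trimming, STAR 2.7.0e for alignment to rn6 and counted reads per gene symbol with featureCounts (Subread 1.6.4). They deposited raw counts, 1 column per rat. The annotation, strand setting and treatment of reads mapping to several genes are not given in the sources used here, so overlapping genes and close paralogs are uncertain. Transcript lengths were not used, so levels of different genes are not compared.

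Counts were analysed in R 4.3.3 with edgeR 4.0.16 (filterByExpr with minimum count 10, TMM, quasi-likelihood F-test, Benjamini-Hochberg over 12014 genes), limma 3.58.1 and DESeq2 1.42.0. For log2 CPM the prior count was 2. Standard errors are the size of the log2 fold change divided by the square root of F. Exact permutation tests were two-sided over 70 labelings. Total counts of 18135939 to 21211920 per rat limit precision, and each replicate is a separate rat per the labels.

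Genes given rat by rat were the called ones, those with an unadjusted p below 0.05 or non-overlapping groups, and those with the highest CPM of their family. Cacna1e, Cacna2d1, Scn11a and Cacna1f were added after their values were seen. Partners named were those with an unadjusted p below 0.05, besides Rem1, Rrad, Unc79, Calm3 and the 3 untested. The members and the lists of channel partners and cell type markers were chosen with earlier results of these data known. Some channel genes enter the counts but are not reported singly here. Same-numbered rats are different animals, so the rat number was used as a block only as an alternative. On simulated counts for 11919 genes with 200 changed by a log2 fold change of 1, the fit called 168 (84%), with 12 false calls, and its 95% intervals held the true value for 94.7% of genes. Genes were simulated independently, without effects shared by the genes of a rat, and no smaller change was put in. The simulation therefore does not show how well smaller changes are found. Sequences came from RefSeq tables of assembly GRCr8, matched by symbol.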

Additional observations from a re-analysis of the deposited data

Results flagged for a closer look

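Groups of 4 rats were searched for a rat far from the other 3, by its gap to the nearest rat as a share of the group's range. Of 72 groups looked at, 4 passed the 95% critical value of Dixon's test, and chance passes about 1 in 20. They were Cacna1b in saline rats, with rat 3 high (0.913), Cacna1c in METH rats, with rat 1 low (0.887), Scn1a in METH rats, with rat 2 high (0.839), and Pex5l in saline rats, with rat 1 low (0.83). None of these genes was called in the comparison of METH and saline rats by the edgeR quasi-likelihood test.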

How the results depend on the processing

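No channel gene was called in any of 19 repeats, 1 of them chosen after seeing the data (other tests, scalings and filters, each rat left out, rats numbered 3 left out). Over all genes, 62 were called, against 170 with the likelihood ratio test, 186 with DESeq2, 37 with the replicate block, 37 with the rats numbered 3 left out, and 37 to 70 with 1 rat left out (37 without saline rat 2). Of the channel genes, 4 had an unadjusted p below 0.05, against 2 with the replicate block (Cacnb1 and Scn2a) and 1 to 6 with 1 rat left out, the fewest without METH rat 3 (Scn2a) and the most without METH rat 1. There were 3 with total-count scaling, where Hcn2 dropped out. With every gene of at least 1 count tested there were 5, Scn11a with a lower mean in METH rats being added. Non-overlap numbered 0 in the main comparison, 0 to 3 with 1 rat left out, with 3 without saline rat 2 (Hcn2, Nalcn and Scn2a), 2 without METH rat 1 and 1 without METH rat 2, and 2 with the rats numbered 3 left out, where 8.32% to 13.4% of all genes did not overlap. Scn2a had an unadjusted p below 0.05 in 18 of the 19, Cacnb1 in 17, Nalcn in 13 and Hcn2 in 11. In 1 of the 19 only the threshold for a call changed, so its p-values were those of the main fit. Deviations of same-numbered rats did not go together (correlations -0.201 to 0.0355). Among the called genes named here, Rem2 kept its call with the block and Cx3cr1 lost it (FDR = 0.114 by the edgeR quasi-likelihood test). Cx3cr1 also lost it with the rats numbered 3 left out and without saline rat 2, 3 or 4 or METH rat 1, 3 or 4, with FDR from 0.000480 to 0.144 over all 19 repeats (edgeR, DESeq2 and limma-voom) and log2 fold changes from -0.81 to -0.61.

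Log2 fold changes of the channel genes, Rem2 and Cx3cr1 turned sign in 37 of 608 repeats, and 17 of the 32 genes never did. The 608 include the setting with FDR below 0.05 alone, which kept the main fit. They also include a robust quasi-likelihood fit, whose fold changes were the same as in the main fit. Signs turned with upper-quartile scaling for Cacna2d3 (-0.0053), with total-count scaling for Cacna1a (-0.012), Cacna1g (-0.0095), Cacna2d3 (-0.034) and Cacnb2 (-0.028), and with the rats numbered 3 left out for Cacna1b (0.077), Cacna1e (0.044), Cacna2d1 (0.11), Cacnb3 (-0.018), Scn1a (0.15), Scn2b (0.18), Scn3a (0.045), Scn4b (-0.0068) and Scn8a (0.037). With 1 rat left out, values ran from -0.011 to 0.086 for Cacna1a, -0.11 to 0.054 for Cacna1b, -0.067 to 0.11 for Cacna1g, -0.072 to 0.071 for Cacna2d3, -0.022 to 0.053 for Cacnb2, -0.089 to 0.21 for Hcn4, -0.18 to 0.10 for Scn1a, -0.12 to 0.084 for Scn2b, -0.23 to 3.4e-05 for Scn3a, -0.0065 to 0.15 for Scn4b, -0.27 to 0.013 for Scn8a and -0.029 to 0.29 for Scn9a. The cause was not tested. At this depth and with 4 rats per group, differences well under 1.5-fold were not resolved for most channel genes.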

Other observations

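Cell type markers were summed per rat for 11 lists. Of 6 microglia markers tested, Cx3cr1, the fractalkine receptor, was called lower in METH rats, with a log2 fold change of -0.73 (edgeR FDR = 0.0408), a call lost in 8 of 19 alternatives, among them the replicate block (edgeR FDR = 0.114). It was at 26.1, 31.3, 30.5 and 36.9 CPM in saline rats 1 to 4 and at 20.6, 21.8, 14.0 and 18.8 CPM in METH rats 1 to 4. Csf1r also had an unadjusted p below 0.05 (log2 fold change -0.22, edgeR FDR = 0.398), and the list summed to 236 to 274 CPM in saline rats and 198 to 243 CPM in METH rats. All 6 microglia markers had a log2 fold change below 0, as had 6172 of all 12014 genes tested. Of 9 projection neuron markers, Ppp1r1b (0.25, edgeR FDR = 0.328) and Drd2 (0.19, edgeR FDR = 0.421) had an unadjusted p below 0.05, beside 11.1% of all genes tested. Over the 9, 6 log2 fold changes were above and 3 below 0, and the list summed to 14380 to 15340 CPM in saline rats and 15150 to 19180 CPM in METH rats.

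Oligodendrocyte precursor markers summed to 178 to 231 CPM in saline and 162 to 185 CPM in METH rats, with 2 of 3 lower at an unadjusted p below 0.05 and 0 called in the edgeR test. Over all genes tested, 4.88% were lower and 6.26% higher at that p. Endothelial markers summed to 369 to 536 and 370 to 397 CPM, with 2 of 4 lower at that p and 0 called in the edgeR test. Log2 fold changes were below 0 for all 3 precursor and all 4 endothelial markers tested, and above 0 for all 3 muscle markers tested. Choroid plexus markers summed to 5.27 to 6.70 and 7.14 to 10.7 CPM, with 1 of 3 higher at that p. These levels were low, with no marker above 4.06 CPM in any rat. Kcne2 went the other way (log2 fold change -0.36), and Ttr, with 0 to 36 counts per rat, was not tested. Subcortical glutamatergic and hypothalamic markers summed to 2.13 to 33.4 and 3.24 to 71.6 CPM, with 1 of 3, Oxt, higher at that p. Oxt was at 49.8 CPM in METH rat 4, against 1.02 to 1.62 CPM in the other METH rats and at most 3.75 CPM in saline rats. No marker had such a p among the interneuron (312 to 375 and 309 to 374 CPM), cortical pyramidal, oligodendrocyte (13370 to 19190 and 12590 to 18730 CPM), astrocyte (2071 to 2340 and 2001 to 2478 CPM) and muscle lists (66.5 to 83.8 and 79.5 to 104 CPM).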
